A study of Mus musculus with 4 samples.

Results

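The protein genes of the cytosolic ribosome were examined in Neuro-2a cells, a mouse neuroblastoma line, after exposure to the pyrethroid insecticide deltamethrin. Members were the probe sets whose symbol in the platform's annotation begins with Rpl or Rps followed by a number, with the letters that mark paralogs, together with Rplp0, Rplp1, Rplp2 and Rpsa. Symbols of pseudogenes and of the Rps6k kinases were left out. This gave 63 genes with 1 probe set each among 22206 probe sets, 39 of the large subunit and 24 of the small subunit. RefSeq lists 84 protein-coding symbols that fit the same rule, and 62 of them had a probe set. The other 22, among them Rplp2, Rpl12, Rps3 and Rps27, were not analysed here. The remaining member, Rps4l, is annotated by RefSeq as a transcribed pseudogene although its symbol does not say so.

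The cells (IFO50081, from mouse strain Albino strain A) were kept in medium with 30 µM deltamethrin or with the vehicle, DMSO at 0.1%, for 24 h. Total RNA was read on Affymetrix Clariom S Mouse arrays, 2 for vehicle (arrays 1 and 2) and 2 for deltamethrin (arrays 1 and 2). All groups are the same line, and nothing in the labels says whether the arrays came from separate cultures, so a p-value here reflects the spread among these 4 arrays alone, and that spread may be technical. Values are log2 levels per probe set as the authors deposited them, means are given ± SD with n = 2 arrays, and fold changes are deltamethrin minus vehicle on the log2 scale ± SE.

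A ribosome is built from a large subunit, which joins amino acids, and a small subunit, which reads the mRNA. Each ribosomal protein is present as about a single copy per ribosome, except the stalk proteins, and cells make the set in step. Their mRNAs characteristically begin with a C and a run of C and T bases, the terminal oligopyrimidine (TOP) tract, through which the kinase mTORC1 and the RNA-binding protein LARP1 control their translation and stability. Proliferating cells such as neuroblastoma lines spend much of their transcription on these genes, and ribosomal protein mRNAs are among the most abundant in the cell.

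The starts of 8 members with this tract at an annotated start and of 3 without it there are shown. The tract is what ribosomal protein mRNAs are known for. Each line gives the 10 bases before and the first 20 bases of the transcript at a start annotated in RefSeq (GRCm38.p6), 5′ to 3′ on the gene's strand, with the tract in capitals. Starts on the chromosome that holds Rpl17 and Rps14 were left out of this choice. Among the rest, the first 5 are the members with a tract and the largest fold changes, and the next 3 those with a tract and the smallest. The last 3 are members without a tract at that start, among them the highest of each subunit.
Rpl38, chr11:114668570-114668599, plus strand: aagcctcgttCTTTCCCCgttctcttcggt
Rps15a, chr7:118116128-118116157, minus strand: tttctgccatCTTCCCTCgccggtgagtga
Rps18, chr17:33955646-33955675, minus strand: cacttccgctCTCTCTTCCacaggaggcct
Rpl35, chr2:39005112-39005141, minus strand: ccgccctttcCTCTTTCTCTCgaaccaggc
Rps6, chr4:86857348-86857377, minus strand: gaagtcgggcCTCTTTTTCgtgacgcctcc
Rpl32l, chr10:20208429-20208458, plus strand: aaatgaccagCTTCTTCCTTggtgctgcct
Rpl15, chr14:18270967-18270996, minus strand: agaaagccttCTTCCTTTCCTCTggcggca
Rpl28, chr7:4792955-4792984, plus strand: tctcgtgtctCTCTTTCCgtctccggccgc
Rps19, chr7:24884582-24884611, plus strand: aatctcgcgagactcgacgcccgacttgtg
Rpl22l1, chr3:28805498-28805527, plus strand: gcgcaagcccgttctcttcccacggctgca
Rpl10l, chr12:66284382-66284411, minus strand: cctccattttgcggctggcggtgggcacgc

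RefSeq start windows were matched for 50 of the 63 members, as 61 windows because some genes have several starts. A C at the start itself followed by 4 or more C or T bases stood in 12 of the 61 windows (19.7%), against 2.51% of all 32851 windows. A C followed by 7 or more C or T bases within 50 bases on either side of the start stood in 46 of 61 (75.4%), against 28.8% of all windows. The ETS family core CCGGAAG, searched on both strands of the 300 bases, was in 36.1% of member windows and 8.86% of all. The YY1 core AAGATGG, searched the same way, was in 16.4% and 6.34%. Annotated starts can lie some bases away from the start a cell uses, so a window without the exact tract says only that these letters are not at that position.

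Cytosolic ribosomal protein transcripts were slightly higher in deltamethrin-treated cells across both subunits, and no single member passed the test. In all, 60 of 63 members had a higher estimate, where 46.4% of all probe sets did. The median fold change was 0.26 on the log2 scale, a 1.19-fold difference, beside -0.02 over all probe sets. For 47 of the 63 members (74.6%) both deltamethrin arrays lay above both vehicle arrays, against 20.3% of all probe sets. The reverse held for 1 member, against 23.5% of all. The 3 members with lower estimates were Rpl10l, Rpl3l and Rps4l, all with levels below the median of all probe sets. The same mass of total RNA, 500 ng, went into each labelling, so more ribosomal protein mRNA per cell and less of other mRNA cannot be told apart, nor can a change in some of the cells and one in all of them. The labels used here name no batch, and an effect of batch cannot be told apart from one of exposure.

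The test was limma's moderated test across all probe sets, two-sided and adjusted by the Benjamini-Hochberg method, with a call at an adjusted p below 0.05. It called 0 of the 63 members, beside 0.432% of all probe sets called, 0.356% higher and 0.0766% lower. The members' adjusted p ran from 0.161 to 0.988. At an unadjusted p below 0.05, 7 members (11.1%) were higher and 0 lower, where 6.83% of all probe sets were higher and 6.84% lower. The smallest change that this fit called in any probe set was 1.22 on the log2 scale, larger than the fold change of any member, the highest of which was 0.78. The SE of a member's fold change was 0.17 at the median. With a mean-variance trend in the variance model, which lets probe sets of high level have a smaller spread, 9 members (14.3%) passed, all higher: Rps19, Rps14, Rps15a, Rps20, Rps13, Rps7, Rpl17, Rpl22l1 and Rpl35. That fit called 2.25% of all probe sets higher.

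**Figure D1:**
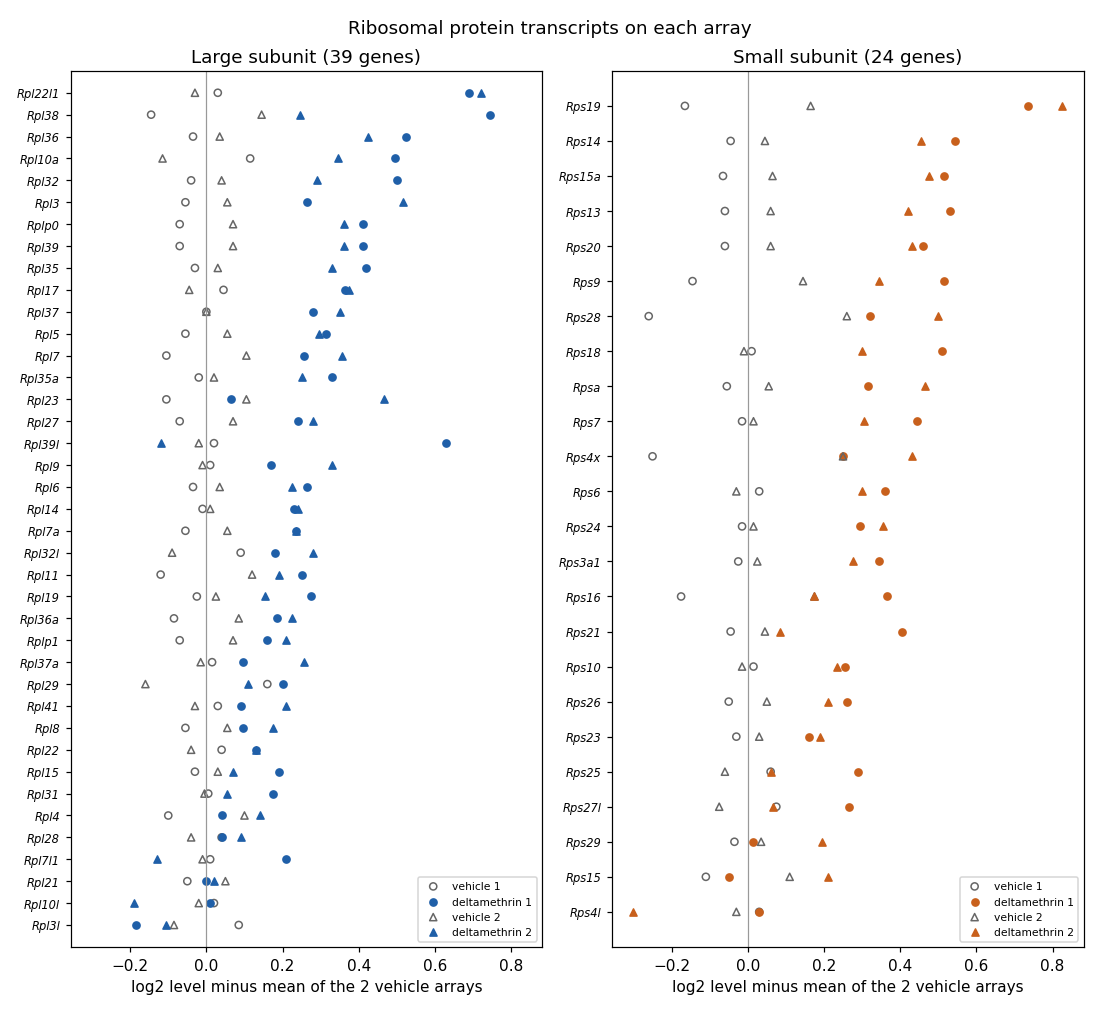
Levels of the 63 ribosomal protein genes on each array, as the log2 level minus the mean of the 2 vehicle arrays (x axis), sorted by fold change within the large (left, blue) and small (right, orange) subunit. Open symbols are vehicle arrays and filled symbols deltamethrin arrays; the filled symbols lie to the right of both open ones for 47 genes.

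The pattern did not rest on 1 array. Over the 60 members above the median level, deltamethrin array 1 exceeded vehicle array 1 by a median of 0.32 and vehicle array 2 by 0.26. Deltamethrin array 2 exceeded them by 0.31 and 0.24. The vehicle arrays themselves differed by a median of 0.07, with array 2 the higher for 41 members, and deltamethrin array 2 was below array 1 by a median of 0.025 (a difference of -0.025). Each of the 4 differences between groups was thus more than 3 times the larger difference within a group. Leaving out each array in turn kept the median between 0.24 and 0.30, with 57 to 60 members higher.

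**Figure D2:**
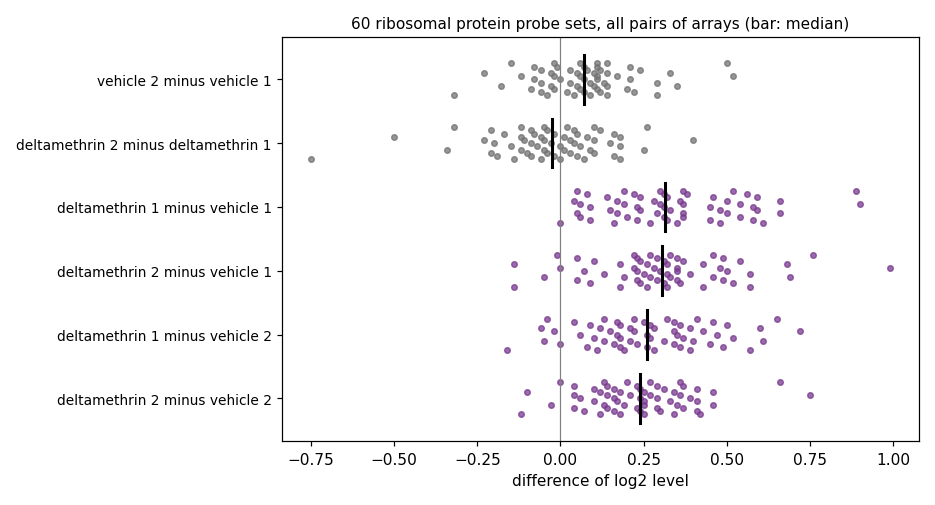
Difference in log2 level between each pair of arrays (x axis) for the 60 ribosomal protein probe sets above the median level, each point being 1 gene and each bar the median. The 2 pairs within a group (grey) have medians of 0.07 and -0.025, and the 4 pairs between groups (purple) have medians from 0.24 to 0.32.

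The small subunit had a somewhat larger median than the large subunit, and their members overlapped widely. The median was 0.33 for the 24 small subunit genes, of which 23 were higher, and 0.24 for the 39 large subunit genes, of which 37 were higher. The lower and upper quartiles were 0.22 and 0.42 for the small and 0.14 and 0.34 for the large subunit. A fold change of at least 0.3 was seen in 14 of 24 small subunit and 13 of 39 large subunit genes. This cut lies between the medians of the subunits, so the count restates their contrast. The share of all probe sets at this cut was not counted, and their upper quartile was 0.175. Arrays did not overlap, with deltamethrin higher, for 17 of 24 small (70.8%) and 30 of 39 large subunit genes (76.9%). Over all probe sets this share was 20.3%. By this count the large subunit was the higher. The medians differed by -0.09 (large minus small). This difference stayed between -0.0975 and -0.06 when each array was left out in turn. Whether it exceeds the spread among genes was not tested.

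The subunits also differed in level on the array, and fold changes were smaller where levels were highest. The median mean level was 16.44 for the large and 15.05 for the small subunit. Among members with a mean level between 14 and 15, 7 small and 1 large subunit genes, the median fold change was 0.39. Between 17 and 18, with 1 small and 10 large subunit genes, it was 0.19, so level and subunit are mixed in this contrast. Lower bands followed no single order, at 0.48 (9 to 10), 0.21 (11 to 12), 0.29 (12 to 13) and 0.41 (13 to 14). Between 15 and 16, the 7 large subunit members had a median of 0.25 and the 6 small subunit members one of 0.26. Between 16 and 17 the 11 large and 4 small subunit members were at 0.27 and 0.22. These 2 bands are the ones that held more than 1 gene of each subunit. Over all 7 bands with genes of both, the small subunit had the higher median in 5 (between 12 and 16, and between 17 and 18), where most bands held a single gene of one subunit. The part of level in the subunit difference was not tested.

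Other transcripts at the same levels did not show the shift. The 1030 other probe sets with a mean level above 14 had a median fold change of -0.06, and 38.4% of them had a higher estimate, whereas all 48 members above that level were higher, with a median of 0.26. In no band of level did the median of the other probe sets exceed 0.04.

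**Figure D3:**
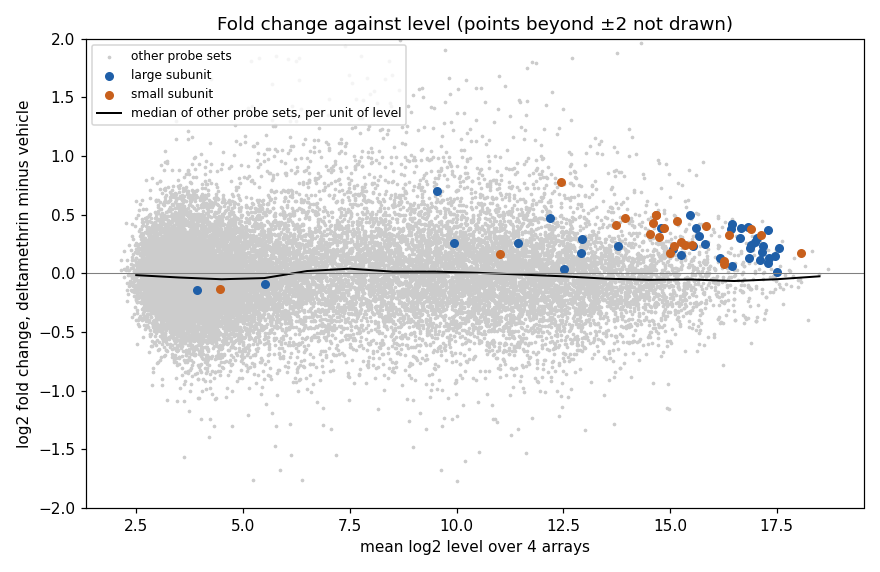
Log2 fold change (y axis, deltamethrin minus vehicle) against the mean log2 level over the 4 arrays (x axis) for all probe sets (grey) and the members of the large (blue) and small (orange) subunit. The black line is the median of the other probe sets in each band of 1 unit of level and stays between -0.065 and 0.04, and the 3 members below the zero line lie at the dim end.

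Among small subunit genes, Rps19 differed most. It encodes a protein of the head of the small subunit that is needed to mature the ribosomal RNA there, and it was the first gene linked to Diamond-Blackfan anaemia, an inherited failure of red cell production. Its level was 11.88 and 12.21 on the vehicle arrays and 12.78 and 12.87 on the deltamethrin arrays. The groups stood 0.57 apart at their nearest, and the fold change was 0.78 ± 0.19 (limma adjusted p = 0.176), a 1.72-fold difference.

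Rps14, a protein of the small subunit platform, was at 14.38 and 14.47 with vehicle and at 14.97 and 14.88 with deltamethrin. Its fold change was 0.50 ± 0.17 (limma adjusted p = 0.274). Both deltamethrin arrays were higher by at least 0.41, well beyond the difference within either group. Rps15a, which carries one of the tracts shown above, had nearly the same values, 14.35 and 14.48 against 14.93 and 14.89, with a fold change of 0.50 ± 0.17. Rps13 was at 13.64 and 13.76 with vehicle and 14.23 and 14.12 with deltamethrin, a fold change of 0.48 ± 0.17. In all 3 genes the arrays of a group lay within 0.15 of each other.

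The rest of the small subunit followed in graded steps. Rps20, which the ubiquitin ligase ZNF598 marks on collided ribosomes, was at 14.88 and 15.00 against 15.40 and 15.37, a fold change of 0.45 ± 0.17. Rps10, marked by the same ligase, had a smaller difference of 0.25 ± 0.16, with 15.24 and 15.21 against 15.48 and 15.46. Both genes had tight replicates and no overlap. Rps9, which lines the entry of the mRNA channel, was at 0.43 ± 0.19, and Rps23, which sits at the decoding centre, at 0.18 ± 0.16. Rps6, the protein phosphorylated by S6 kinase downstream of mTORC1, went from 17.00 and 16.94 to 17.33 and 17.27, a fold change of 0.33 ± 0.16. Rpsa, which helps shape the back of the small subunit and is also known as a laminin receptor, went from 14.60 and 14.71 to 14.97 and 15.12, a fold change of 0.39 ± 0.17.

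At the lower end of the small subunit the groups overlapped. Rps15, a head protein that contacts tRNA, was at 16.11 and 16.33 with vehicle and at 16.17 and 16.43 with deltamethrin, a fold change of 0.08 ± 0.19 that changed sign when vehicle array 1 (-0.03) or deltamethrin array 2 (-0.05) was left out. Rps29 was at 16.18 and 16.25 against 16.23 and 16.41 (0.11 ± 0.17). Rps25, which viral internal ribosome entry sites depend on, was at 14.97 and 14.85 against 15.20 and 14.97 (0.18 ± 0.18). In these genes 1 deltamethrin array was no higher than the upper vehicle array. Rps28 and Rps4x had the widest vehicle pairs of the subunit, 13.26 and 13.78 for Rps28 and 14.11 and 14.61 for Rps4x, so that their fold changes of 0.41 ± 0.22 and 0.34 ± 0.22 carried larger errors. Rps28 was at 0.15 without vehicle array 1 and at 0.67 without vehicle array 2, and Rps4x at 0.09 and 0.59.

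In the large subunit, the 4 highest were Rpl22l1, Rpl38, Rpl36 and Rpl10a. Rpl22l1 encodes a paralog of Rpl22 that can take its place in the ribosome and that RPL22 protein represses by binding its RNA. It was at 9.22 and 9.16 with vehicle and at 9.88 and 9.91 with deltamethrin, a fold change of 0.71 ± 0.16 (limma adjusted p = 0.161), the lowest adjusted p of any member. The arrays of a group differed by 0.06 and 0.03, and the groups stood 0.66 apart. Rpl38, whose loss in mice alters translation of Hox mRNAs, was at 15.08 and 15.37 against 15.97 and 15.47, a fold change of 0.50 ± 0.23. The 2 deltamethrin arrays of Rpl38 disagreed by 0.50, and only 0.10 separated the groups. Rpl36 was at 11.91 and 11.98 against 12.47 and 12.37 (0.48 ± 0.17). Rpl10a, a protein of the mobile stalk at the tRNA exit side, was at 16.35 and 16.12 against 16.73 and 16.58 (0.42 ± 0.18). The gap between groups was 0.39 for Rpl36, wider than the difference within either group, and 0.23 for Rpl10a, no wider than the difference between its vehicle arrays.

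The acidic stalk recruits the elongation factors. Rplp0, its base, was at 15.34 and 15.48 with vehicle and 15.82 and 15.77 with deltamethrin, a fold change of 0.39 ± 0.17. Rplp1 was at 16.98 and 17.12 against 17.21 and 17.26, a smaller difference of 0.19 ± 0.17. In neither gene did the groups overlap, although the gap for Rplp1 was 0.09. Rpl5 and Rpl11 form, with the 5S ribosomal RNA, a particle that binds MDM2 and stabilises p53 when ribosome assembly is disturbed. Rpl5 was at 16.83 and 16.94 against 17.20 and 17.18 (0.31 ± 0.16). Rpl11 was at 16.64 and 16.88 against 17.01 and 16.95 (0.22 ± 0.17). The Rpl11 groups were 0.07 apart, less than the difference between its vehicle arrays.

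Proteins that line the tunnel through which the new chain leaves were measured for 6 of 8 listed genes, all higher, with a median of 0.29. Rpl39, inside the tunnel, was at 0.39 ± 0.17 and Rpl35, at its rim and a docking site for factors that receive the chain, at 0.38 ± 0.16. Rpl17 was at 0.37 ± 0.16, Rpl19 at 0.22 ± 0.16, Rpl31 at 0.12 ± 0.16 and Rpl4 at 0.09 ± 0.17. For Rpl4 the groups overlapped (17.15 and 17.35 against 17.29 and 17.39). Near the centre where peptide bonds form, Rpl3 was at 16.40 and 16.51 against 16.72 and 16.97 (0.39 ± 0.18) and Rpl8 at 16.05 and 16.16 against 16.20 and 16.28 (0.14 ± 0.17). Of the 18 listed genes in which mutations cause Diamond-Blackfan anaemia, 14 were measured. All 14 were higher, with a median of 0.28 and a range from 0.11 to 0.78, and in 13 the groups did not overlap, beside 20.3% of all probe sets and 78.3% of the members above the median level.

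The lowest of the large subunit genes above the median level were Rpl21, Rpl7l1, Rpl28 and Rpl4. Rpl21 was at 17.45 and 17.55 with vehicle and at 17.50 and 17.52 with deltamethrin, a fold change of 0.01 ± 0.16, and its sign turned to -0.02 after quantile normalization. Rpl28 was at 16.46 and 16.38 against 16.46 and 16.51 (0.07 ± 0.16). In both genes the groups overlapped, unlike most of their subunit.

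The paralogs split by level. Rpl3l, the skeletal and heart muscle form of Rpl3, was at 4.09 and 3.92 with vehicle and 3.82 and 3.90 with deltamethrin, and Rpl10l, the testis form of Rpl10, at 5.58 and 5.54 against 5.57 and 5.37. Rps4l was at 4.55 and 4.49 against 4.55 and 4.22. All 3 lay below the median of all probe sets, where the deposited values give no detection call, with fold changes of -0.15 ± 0.17, -0.09 ± 0.17 and -0.14 ± 0.19.

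Of the listed paralogs above the median level, Rpl22l1 had close replicates, and the other 3 had groups that overlapped. Rpl39l, a testis-enriched form of Rpl39 also found in some tumours, was at 9.84 and 9.80 against 10.45 and 9.70, so the deltamethrin arrays fell on either side of both vehicle arrays. Rpl7l1 behaved in the same way, at 12.50 and 12.48 against 12.70 and 12.36. Rps27l, a p53-inducible form of Rps27, was at 11.02 and 10.87 against 11.21 and 11.01 (0.17 ± 0.18). None of these 3 showed a difference beyond its replicates. Rpl32l, not among the listed paralogs but paired with Rpl32 below, was at 13.75 and 13.57 against 13.84 and 13.94 (0.23 ± 0.17). Its groups did not overlap and stood 0.09 apart, less than the difference between its vehicle arrays.

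Rpl22l1 and Rpl22 were set against each other within each array. Rpl22 was at 16.82 and 16.74 with vehicle and at 16.91 on both deltamethrin arrays, a fold change of 0.13 ± 0.16. The change of Rpl22l1 was larger than that of Rpl22 by 0.58, with an SD of the difference of 0.01 in vehicle and 0.02 in deltamethrin (n = 2 each). The exact two-sided permutation test gave p = 0.333, the smallest that 2 arrays against 2 can give. The corresponding differences were -0.13 for Rpl39l over Rpl39 and -0.27 for Rpl7l1 over Rpl7, with p = 1 and 0.667 by the same exact test. Rpl3l over Rpl3 differed by -0.54 (exact p = 0.333), about as far as Rpl22l1 but in the opposite direction. Rps4l over Rps4x differed by -0.48 and Rpl32l over Rpl32 by -0.17, both with an exact p of 0.667. Rpl3l and Rps4l had mean levels of 3.93 and 4.45, below the median of all probe sets, unlike Rpl22l1 at 9.54. Their partners Rpl3 and Rps4x had fold changes of 0.39 and 0.34. Over the 6 pairs the Benjamini-Hochberg adjusted p was 0.80 for all but Rpl39l, where it was 1, and no pair can pass a threshold of 0.05 in this design.

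Ribosomal proteins have many processed pseudogenes and close copies, and how far a probe set also reads them was not tested. Members with a start tract, 12 genes, had a median fold change of 0.27 (0.07 to 0.50). The 38 members with a window but no tract exactly at an annotated start had one of 0.25 (-0.15 to 0.78). A C followed by 7 or more C or T bases within 50 bases of a start was found in 41 members. This sorting therefore cannot separate mRNAs with and without a TOP tract. Most of the sequences shown above were picked by fold change, so a contrast among them cannot bear on the tract. Rpl15 and Rpl28, picked as low members with a tract, were at 0.13 and 0.07. Of the members shown without a tract at the annotated start, Rps19 and Rpl22l1 were the 2 highest members and Rpl10l was at -0.09.

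Ribosomal protein genes outside the symbol rule also had higher estimates. Fau, which encodes a small subunit protein fused to a ubiquitin-like domain, was at 14.71 and 14.83 against 15.09 and 15.00 (0.28 ± 0.17). Together with Rps27rt (0.51 ± 0.19), Rpl37rt (0.45 ± 0.18) and Rpl36al (0.12 ± 0.18) it made 4 measured genes, all with higher estimates and a median of 0.36, and 0 passed the limma test (2 at an unadjusted p below 0.05).

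Other genes known for TOP mRNAs showed a smaller median. Of 17 measured, 11 were higher and 6 lower, with a median of 0.09 (0.02 to 0.08 with 1 array left out), and 0 passed in limma (1 at an unadjusted p below 0.05). The highest was Tpt1, the translationally controlled tumour protein, at 15.51 and 15.53 against 15.84 and 16.05 (0.43 ± 0.17). The elongation factor subunit Eef1g was at 0.27 ± 0.20 with overlapping groups, and the initiation factor subunit Eif2s3x at -0.24 ± 0.17 with both deltamethrin arrays lower.

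Of 19 measured regulators of these mRNAs, 7 had higher and 12 lower estimates (median -0.10), and 0 passed in limma (2 at an unadjusted p below 0.05). Eif4ebp2, which holds back cap-dependent translation until mTORC1 phosphorylates it, was at 10.43 and 10.53 with vehicle and at 9.69 and 9.72 with deltamethrin, a fold change of -0.78 ± 0.16 (limma adjusted p = 0.142). Its paralog Eif4ebp1, a known target of ATF4, was at 13.82 and 13.86 against 14.15 and 14.42 (0.45 ± 0.18). The 2 paralogs thus lay on opposite sides of 0, each without overlap. The ETS factor Gabpa was at -0.43 ± 0.20.

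Ribosome assembly factors stood at a median of 0.00 over 28 measured genes, of which 0 passed in limma, also at an unadjusted p below 0.05. The catalytic subunit of RNA polymerase I, Polr1a, was at 13.25 and 13.36 against 12.89 and 12.94 (-0.39 ± 0.16), and the pre-ribosomal factor Wdr12 at 0.36 ± 0.16 and the kinase Riok2 at 0.34 ± 0.17. Neither the arrays of Polr1a nor those of Wdr12 overlapped.

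Chaperones and importers of ribosomal proteins had a median of 0.01 over 12 genes (-0.03 to 0.07 with 1 array left out), with 0 passing in limma (2 at an unadjusted p below 0.05). Pdcd2, a chaperone of the small subunit protein Rps2, was at 11.39 and 11.37 with vehicle and at 12.44 and 12.26 with deltamethrin, a fold change of 0.97 ± 0.17 (limma adjusted p = 0.0959). Its relative Pdcd2l was at 9.16 and 9.05 against 10.10 and 9.60 (0.75 ± 0.22). Neither overlapped vehicle, although the gap of 0.44 for Pdcd2l was narrower than the difference between its deltamethrin arrays. The third by p, Aamp, was at -0.33 ± 0.21 with overlapping groups.

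In ribosome quality control, which deals with stalled ribosomes, 0 of 15 measured genes passed in limma (2 at an unadjusted p below 0.05) and the median was 0.05 (-0.04 to 0.14 with 1 array left out). Ankzf1, which releases the stalled chain from tRNA, was at 9.83 and 9.68 with vehicle and at 10.69 and 10.77 with deltamethrin, a fold change of 0.98 ± 0.17 (limma adjusted p = 0.0953). Rnf14, a ligase that acts on stalled factors, was at 0.57 ± 0.17, and Nufip1, described as a receptor for autophagy of ribosomes, at 0.38 ± 0.17. All 3, named for the smallest p of the list, had both deltamethrin arrays above both vehicle arrays. Over the list 8 genes had higher and 7 lower estimates. Both deltamethrin arrays were higher in 6 genes and lower in 4, beside 20.3% and 23.5% of all probe sets. With the mean-variance trend 2 genes of this list and 1 chaperone passed as higher, and 1 regulator passed as lower. That fit called 2.25% of all probe sets higher. With probe sets below the 40th percentile of level left out, 1 gene of this list and 1 chaperone passed. The shares of all probe sets called lower with the trend, or called with this filter, were not counted.

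Mitochondrial ribosomal proteins, a separate set that builds the ribosome of the mitochondrion, were spread on both sides of 0. Over 76 genes the median was 0.08, with 45 or 59.2% above 0, beside -0.02 and 46.4% over all probe sets. Both deltamethrin arrays exceeded both vehicle arrays for 36.8%, against 74.6% of the cytosolic members and 20.3% of all probe sets. By these measures the list lay between all probe sets and the cytosolic members. The extremes were Mrpl24, at 10.51 and 11.02 against 12.11 and 12.35 (1.47 ± 0.23, limma adjusted p = 0.0740), and Mrpl34, at 11.44 and 11.34 against 10.42 and 10.12 (-1.12 ± 0.18, limma adjusted p = 0.0864). Of the mitochondrial genes 0 passed in limma (5 higher and 5 lower at an unadjusted p below 0.05). With the mean-variance trend 4 did, 2 in each direction, where that fit called 2.25% of all probe sets higher. With the filter on level 2 did, 1 in each direction. The shares of all probe sets called lower with the trend, or called with the filter, were not counted. The cytosolic members thus had the narrower range of fold changes, from -0.15 to 0.78 against -1.12 to 1.47, at higher levels on the array.

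**Figure D4:**
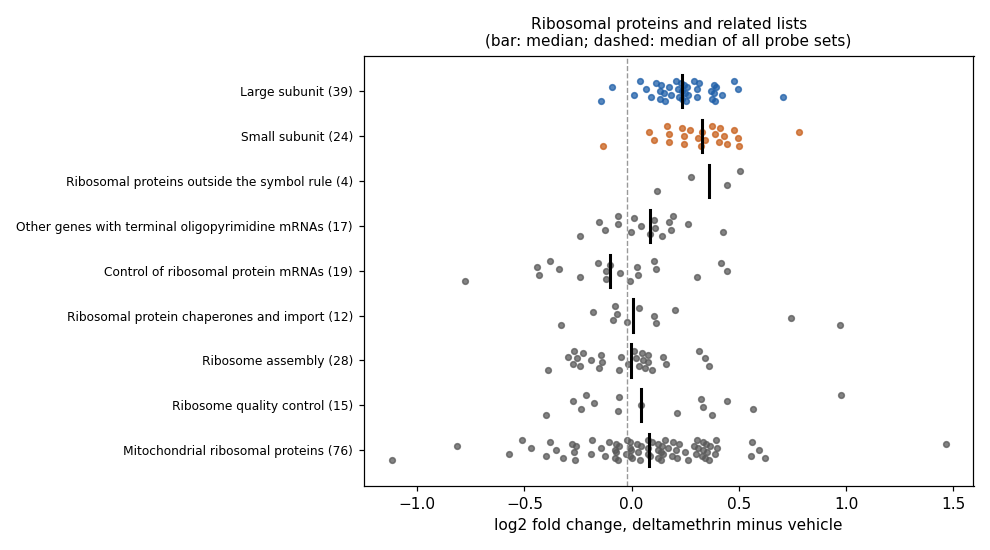
Log2 fold change (x axis, deltamethrin minus vehicle) of every measured gene in the cytosolic subunits and in 7 related lists, with the number measured in brackets, black bars for medians and a dashed line for the median of all probe sets. The medians are 0.24 and 0.33 for the large and small subunit, 0.36 for ribosomal proteins outside the symbol rule and between -0.10 and 0.09 for the other 6 lists.

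The cells carried markers of their labelled origin, and these markers were lower by estimate after exposure. Of 12 measured markers of sympathoadrenal neuroblastoma, 11 had a level above the median probe set, all but Ddc. Their median fold change was -0.25, 10 had lower estimates and in 8 both deltamethrin arrays were lower, against 23.5% of all probe sets. The test called 0 of them in limma, with 1 higher and 5 lower at an unadjusted p below 0.05. Th, which encodes the first enzyme of catecholamine synthesis, went the other way, from 6.28 and 6.96 with vehicle to 7.71 and 7.33 with deltamethrin, a fold change of 0.90. The summed linear level of the 12 markers lay between 197565 and 199768 on the vehicle arrays and between 161754 and 171396 on the deltamethrin arrays. The brightest of them, Stmn2 and Tubb3, weigh most in this sum. The mean log2 level, in which each marker counts alike, was 11.52 to 11.59 with vehicle and 11.115 to 11.305 with deltamethrin. All 5 measured fibroblast markers and all 4 glial markers were below the median of all probe sets, as were 4 of 5 macrophage markers. Summed levels were 113 to 118 with vehicle and 104 to 122 with deltamethrin for fibroblasts, 72.6 to 77.5 and 67.8 to 73.9 for glia, and 104 to 108 and 94.1 to 96.2 for macrophages. The part of these shifts in the ribosomal protein values was not tested.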

How the data were processed

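Per the submitters' processing notes, the authors processed the arrays with RMA and Transcriptome Analysis Console; which versions and which variant of RMA is not given in the sources used here. Deposited values were taken as log2 from their range, 1.92 to 18.75. They hold no detection call, and the number of arrays limits the precision. Of 22206 probe sets 19572 had 1 symbol in the platform annotation, 0 several, and 2634 were unnamed here. All member symbols matched RefSeq by Entrez ID.

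Groups came from the sample titles. All probe sets entered limma 3.58.1 (R 4.3.3; lmFit and eBayes, no trend, no block; 2 residual and 4.43 prior degrees of freedom), and the fit was tested on simulated data. Lists are described by counts and medians. The members, lists and alternatives were chosen with earlier results of these data known. Values per array are given for the 4 highest and 4 lowest members of each subunit above the median level, stalk, 5S particle, Rpsa and paralog genes, and up to 3 genes of smallest p per related list; others were chosen after their values were seen. Alternatives were other scalings, variance models, a level filter, the replicate block and leaving out each array.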

Additional observations from a re-analysis of the deposited data

How the results depend on the processing

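The count of members called was 0 of 63 under every alternative run except the mean-variance trend, where 9 passed, 3 of the large and 6 of the small subunit. Cyclic loess normalization gave medians of 0.29 for the large and 0.38 for the small subunit. Leaving out 1 array at a time gave 0 calls each time, medians between 0.20 and 0.28 for the large and between 0.27 and 0.365 for the small subunit, where the single array left in a group is taken to vary like the remaining pair. The subunit difference (large minus small) then ran from -0.0975 to -0.06, and 57 to 60 members stayed above 0. Quantile normalization turned Rpl21 to -0.02. With 1 array left out the sign turned for 8 members: Rpl21 ranged from -0.04 to 0.06, Rpl4 from -0.01 to 0.19, Rpl29 from -0.005 to 0.315, Rps15 from -0.05 to 0.21, Rpl39l from -0.12 to 0.63, Rpl7l1 from -0.13 to 0.21, Rps4l from -0.3 to 0.03 and Rpl10l from -0.19 to 0.01. The cause was not tested. The arrays of the 2 groups share replicate numbers, and nothing in the labels pairs them. Deviations of same-numbered arrays correlated at 0.127 over all probe sets, at 0.246 over those above the median level and at 0.212 over the 60 members above it. With the replicate block 0 members passed and the median stayed at 0.255. The filter on level removed 2 members, Rpl3l and Rps4l, and brought calls in 3 of the related lists, given above.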
